A study of Mus musculus with 8 samples.

Results

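The enzymes that carry glucose into glycolysis come in several isoforms, and 10 genes for them were followed in brown adipose tissue (BAT): the glucose transporter gene Slc2a1, the hexokinases Hk1, Hk2 and Hk3, the phosphofructokinases Pfkl, Pfkm and Pfkp, the regulator Pfkfb3, the pyruvate kinase Pkm and the lactate dehydrogenase Ldha. They were chosen by name as isoforms typical of leukocytes, adipocytes, muscle and other tissues, and found by gene symbol among the 44674 genes of the expression table, where all 10 had 1 row each. BAT came from 4 controls without Cre (Sert-Cre wt/wt; mice 10684, 11253, 11560 and 11563) and 4 Ox1RΔSERT animals with it (Sert-Cre tg/wt; mice 11243, 11601, 11613 and 11708), all of them Ox1R fl/fl, so that both groups carried the floxed allele of the orexin receptor and only the second carried Cre under the promoter of the serotonin transporter. All were males kept on HFD, a high-fat diet, from 4 to 18 weeks of age. BAT was collected between 14 and 16 h, when a hyperinsulinemic-euglycemic clamp ended, so every value is from tissue under infused insulin, with no clamp-free mouse to set it against. The deletion is aimed at cells that express the serotonin transporter. In these BAT libraries the targeted receptor gene, Hcrtr1, had 0 to 5 estimated counts and the transporter gene, Slc6a4, 6 to 21, so that they cannot check the deletion.

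Hexokinases phosphorylate glucose and trap it in the cell. Hk1 is found in most tissues, Hk2 is the form of insulin-responsive tissues such as adipose tissue and muscle, and Hk3 is best known from leukocytes. Phosphofructokinase, the committed step of glycolysis, is built from subunits named after liver (Pfkl), muscle (Pfkm) and platelets (Pfkp), although none of them is restricted to the tissue in its name. In brown adipocytes, glucose is taken up during insulin stimulation and cold exposure, and is burned, stored as glycogen or lipid, or released as lactate.

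Hk2 was the abundant hexokinase of this tissue and Hk3 the scarce one. The RefSeq bases before their transcription starts (GRCm38.p6, minus strand, 250 bases each, upstream only) are shown because these 2 genes mark the contrast of the isoforms. The Hk2 gene spans chr6:82725025-82774454 and its upstream stretch is chr6:82774455-82774704. The Hk3 gene spans chr13:55005985-55021385 and its upstream stretch is chr13:55021386-55021635. Capitals mark the core of the hypoxia response element, ACGTG or GCGTG on either strand, and the core GAGGAA bound by PU.1, a transcription factor of myeloid cells, also on either strand.
Hk2: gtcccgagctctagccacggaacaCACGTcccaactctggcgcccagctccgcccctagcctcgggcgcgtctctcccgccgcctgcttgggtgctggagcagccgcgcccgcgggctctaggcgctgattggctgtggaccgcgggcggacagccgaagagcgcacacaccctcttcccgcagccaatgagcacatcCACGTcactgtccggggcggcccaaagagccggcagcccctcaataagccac
Hk3: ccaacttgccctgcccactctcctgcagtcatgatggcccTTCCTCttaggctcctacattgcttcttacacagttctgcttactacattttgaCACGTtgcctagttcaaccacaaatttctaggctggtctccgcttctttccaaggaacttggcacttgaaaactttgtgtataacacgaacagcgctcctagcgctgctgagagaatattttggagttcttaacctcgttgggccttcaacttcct
The Hk2 stretch held 25 CpG dinucleotides at 69.6% GC, and that of Hk3 held 6 at 47.2% GC, where the median of all 32851 RefSeq mouse promoters was 6 CpG and 52.4% GC. The hypoxia core was present 2 times before Hk2 and 1 time before Hk3, and in at least 1 promoter of each of the 10 genes. It was in 14 of their 17 promoters, and in 38.6% of all mouse promoters. GAGGAA occurred before Hk3 and not before Hk2, and was in 7 of the 17 promoters (of Hk1, Hk3, Pfkfb3 and Pfkm) and in 23.3% of all. The E-box CACGTG, which overlaps the hypoxia core, was in 3 of the 17 promoters (1 each of Ldha, Pfkfb3 and Pfkm) and in 6.02% of all. The Pfkm windows chr15:98108221-98108470 and chr15:98108306-98108555 overlap and share a GAGGAA and a hypoxia core, so the 17 promoters are not all separate stretches. Such matches describe the letters of these windows only.

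The 8 libraries held 35852708 to 50063339 estimated counts, of which mitochondrially encoded transcripts took 40% to 46.8% in control mice and 33.6% to 44.6% in Ox1RΔSERT mice. Brown adipocyte markers were present in every mouse, with a summed level of 11045 to 12123 TPM (a level per transcript length, scaled to the library) in control and 10257 to 13097 in Ox1RΔSERT mice. Fabp4, a fatty acid carrier, made up most of that sum. Ucp1, the uncoupling protein that makes heat, had normalised values of 3731 to 4894 in control and 2513 to 3817 in Ox1RΔSERT mice (log2 fold change -0.54, SE 0.18, edgeR adjusted p = 0.316), with 3 of 4 below all controls, and Dio2, which activates thyroid hormone, 198 to 1126 and 198 to 534 (log2 fold change -1.22, SE 0.50, edgeR adjusted p = 0.32). Log2 fold changes of the other brown adipocyte markers were 0.39 for Ppara, 0.33 for Adrb3, and -0.03 for both Pparg and Plin1. For Adipoq, Cidea and Fabp4 they were -0.21, -0.26 and -0.29 (edgeR adjusted p of 0.399 or more for all of these). Mice 11601 and 11708 stood apart from the rest: each of the 10 leukocyte and macrophage markers and each of the 4 fibroblast markers was highest in these 2 animals. The leukocyte and macrophage markers summed to 798 TPM in 11601 and 611 in 11708, and to 65.1 to 139 in the other 6 mice. Skeletal muscle markers, from 1.44 to 135 TPM in sum in the other 6 mice, reached 682 in control mouse 11253 and 1359 in 11708, and all 10 were highest in those 2. Summed levels in control and Ox1RΔSERT mice were 87.3 to 185 and 140 to 1457 TPM for fibroblast markers, 55.7 to 79.9 and 82.8 to 137 for endothelial markers, and 724 to 1882 and 792 to 2231 for erythroid markers. In edgeR, the endothelial marker Cldn5 had a log2 fold change of 1.10 (SE 0.40, adjusted p = 0.316). The other endothelial markers ran from -0.31 (Emcn) to 0.07 (Cdh5). A higher level of marker RNA may come from more cells of a type or from more RNA per cell, and bulk tissue cannot tell these apart.

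On the per-length scale, the 10 genes held the same order of mean level in both groups. Control means were 544 ± 68.9 TPM (SD, n = 4) for Ldha, which makes lactate from pyruvate, and 497 ± 85 for Pkm, which makes pyruvate. Their ranges overlapped, and both lay above all other members in every mouse. Pfkl (134 ± 25.2 TPM), Pfkfb3 (115 ± 40.3) and Hk2 (93.8 ± 38.3) followed and were not separated beyond the spread between control mice. Pfkp was next with 46.9 ± 15.4 TPM. Pfkm (11.9 ± 4.14 TPM) and Hk1 (8.5 ± 0.94) overlapped with each other, while Slc2a1 (3.6 ± 1.57) and Hk3 (0.315 ± 0.118) were each below the gene before them in all 4 control mice. In Ox1RΔSERT mice the means ran from 647 ± 65.1 TPM for Ldha to 2.01 ± 1.82 for Hk3.

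**Figure D1:**
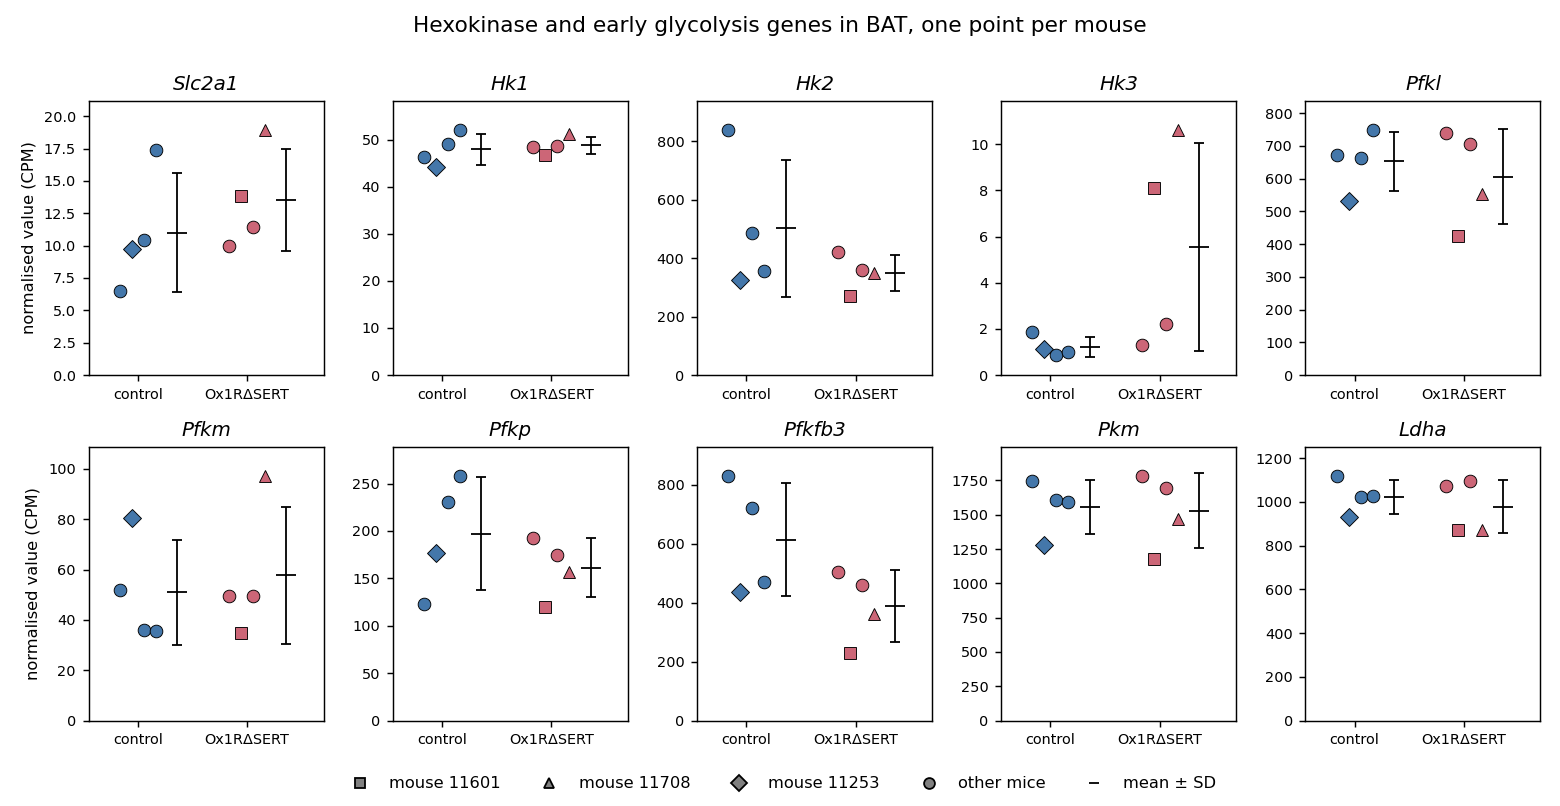
Normalised values (CPM, counts scaled to the library size with TMM, linear axes from 0) of the 10 genes, with 1 point per mouse, 4 control mice in blue and 4 Ox1RΔSERT mice in red, and mean ± SD beside them. Hk3 is high in mice 11601 (8.09) and 11708 (10.6) and between 0.858 and 2.2 in the other 6, while the groups overlap for every gene.

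Between the groups, compared with edgeR on estimated counts (quasi-likelihood test, Benjamini-Hochberg adjustment over 14489 tested genes), none of the 10 genes differed at an adjusted p below 0.05. This was so for all genes: 0 were called (0% of those tested, lowest adjusted p = 0.316), and 15.2% had an unadjusted p below 0.05. Among the members, 2 of 10 did, Hk3 upward and Pfkfb3 downward. With DESeq2, 1.75% of genes were called, and Hk3 was the only member among them. Normalised values (CPM after TMM scaling) of the groups did not overlap in 5.5% of genes tested, and overlapped in all 10 members. The median log2 fold change of the members was -0.05, against 0.0021 over all tested genes, with 4 members above 0 and 6 below.

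Hk3 had the largest log2 fold change of the 10 genes. Its normalised values were 1.86, 1.11, 0.858 and 1.01 in controls 10684, 11253, 11560 and 11563, and 1.31, 8.09, 2.2 and 10.6 in Ox1RΔSERT mice 11243, 11601, 11613 and 11708. So mice 11601 and 11708 were high, 11613 was just above the highest control and 11243 lay within the controls. These values rest on 35 to 71 estimated counts per control library and 60 to 517 per Ox1RΔSERT library. The log2 fold change, Ox1RΔSERT against control, was 2.20 (SE 0.65), with an adjusted p of 0.316 in edgeR and 0.0288 in DESeq2. An exact two-sided permutation test of the normalised values over the 70 possible assignments of the mice gave p = 0.0571, where the smallest p this design allows is 0.0286. Without 11601 and 11708 the log2 fold change was 0.54 (SE 0.37, edgeR adjusted p = 0.996). These were the 2 mice with the highest Hk3, so a smaller change followed from leaving them out.

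**Figure D2:**
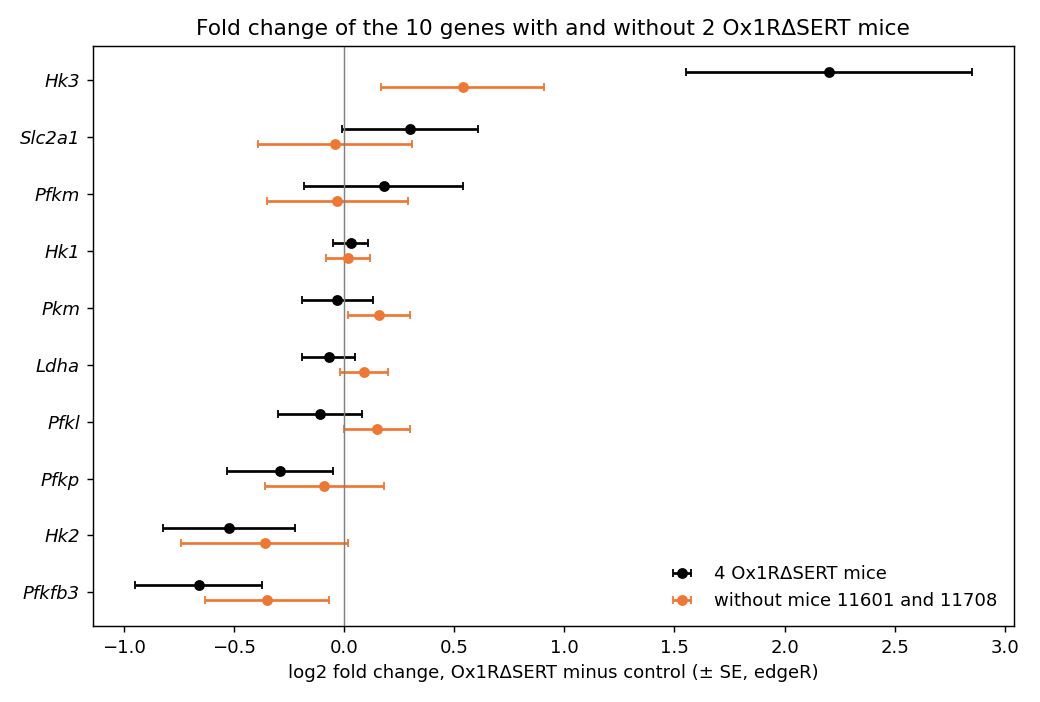
Log2 fold changes of the 10 genes (Ox1RΔSERT minus control, edgeR, bars show ± SE), in black with all 4 Ox1RΔSERT mice and in orange without mice 11601 and 11708. Hk3 moves from 2.20 to 0.54, and Pfkfb3, the lowest in black, from -0.66 to -0.35.

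The call of Hk3 by DESeq2 changed with the animal left out. Its adjusted p was 0.000133 without mouse 11243, 0.00371 without 11613 and 0.0105 without 10684. It was 0.0504 without 11253, 0.139 without 11563, 0.198 without 11560, 0.285 without 11708 and 0.32 without 11601. The log2 fold change stayed between 1.67 and 2.50 in these fits.

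Hk3 was highest in the 2 mice with the highest leukocyte markers, 11601 and 11708, where the fibroblast markers were highest too. Set against Ptprc, which encodes the leukocyte antigen CD45, the TPM of Hk3 was 0.498, 0.214, 0.456 and 0.327 times that of Ptprc in controls 10684, 11253, 11560 and 11563, and 0.258, 0.474, 0.358 and 0.753 times in 11243, 11601, 11613 and 11708. The ratios of the groups overlapped. The ratio in 11601 was within the range of the controls, and that in 11708 was above all controls. Of all tested genes outside the 10 members, that with the pattern nearest to Hk3 over the 8 mice was Pstpip1, which encodes an adaptor protein of blood cells, with a root mean square difference of 0.203 on the mean-centred log2 scale, where Hk3 itself varied by 1.25. Next came ENSMUSG00000089672, for which no symbol was found (0.236), B430306N03Rik (0.264), Gm49339 (0.268) and Cd14, the monocyte receptor for lipopolysaccharide (0.283), itself 1 of the 10 leukocyte markers. Ptprc stood at 0.438 and Hk2 at 1.48. The part of leukocytes in the level of Hk3 was not tested. Of the 8 neutrophil markers, only S100a8, S100a9, Csf3r and Retnlg passed the filter on low counts. Their list summed to 6.98 to 42.5 TPM in control and 19.7 to 89.8 in Ox1RΔSERT mice, and Mpo and Camp were at or below 0.1 TPM in every mouse.

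Hk2 showed no such rise. Its normalised values were 838, 326, 488 and 356 in controls 10684, 11253, 11560 and 11563, and 423, 271, 360 and 348 in Ox1RΔSERT mice 11243, 11601, 11613 and 11708. The groups overlapped, and mouse 10684 alone was far above all others. The log2 fold change was -0.52 (SE 0.30, edgeR adjusted p = 0.408), and without 10684 it was -0.16 (SE 0.19). The genes nearest to Hk2 in pattern were Cnst (0.118), Prkab1, a subunit of AMP-activated protein kinase (0.121), Mpzl2 (0.138), Acsl5, an acyl-CoA synthetase (0.172), and C1rl (0.174), where Hk2 itself varied by 0.464 around its mean. Among the members, Pfkfb3 was closest to Hk2, with 0.251.

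Hk1 was the steadiest of the 10 genes, with normalised values of 44.3 to 52 in control and 46.8 to 51.2 in Ox1RΔSERT mice. Its log2 fold change was 0.03 (SE 0.08, edgeR adjusted p = 0.891).

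As a share of the summed TPM of 4 hexokinase genes (Hk1, Hk2, Hk3 and Hkdc1), Hk2 made up 90.7% ± 2.67 (SD, n = 4) in control and 85.6% ± 3.86 in Ox1RΔSERT mice, and its lowest share in any mouse was 81.8%, in 11708. Hk1 held 8.98% ± 2.65 and 12.2% ± 2.03. The share of Hk3 was 0.31%, 0.339%, 0.254% and 0.333% in controls 10684, 11253, 11560 and 11563, and 0.339%, 3.42%, 0.738% and 4.39% in 11243, 11601, 11613 and 11708. Mice 11601, 11613 and 11708 lay above every control, and 11243 was level with the highest control. Hkdc1 had 0 or 1 estimated count in each library. These are shares of transcripts, not of enzyme activity, and the few counts of Hkdc1 and Hk3 limit the precision of their shares.

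**Figure D3:**
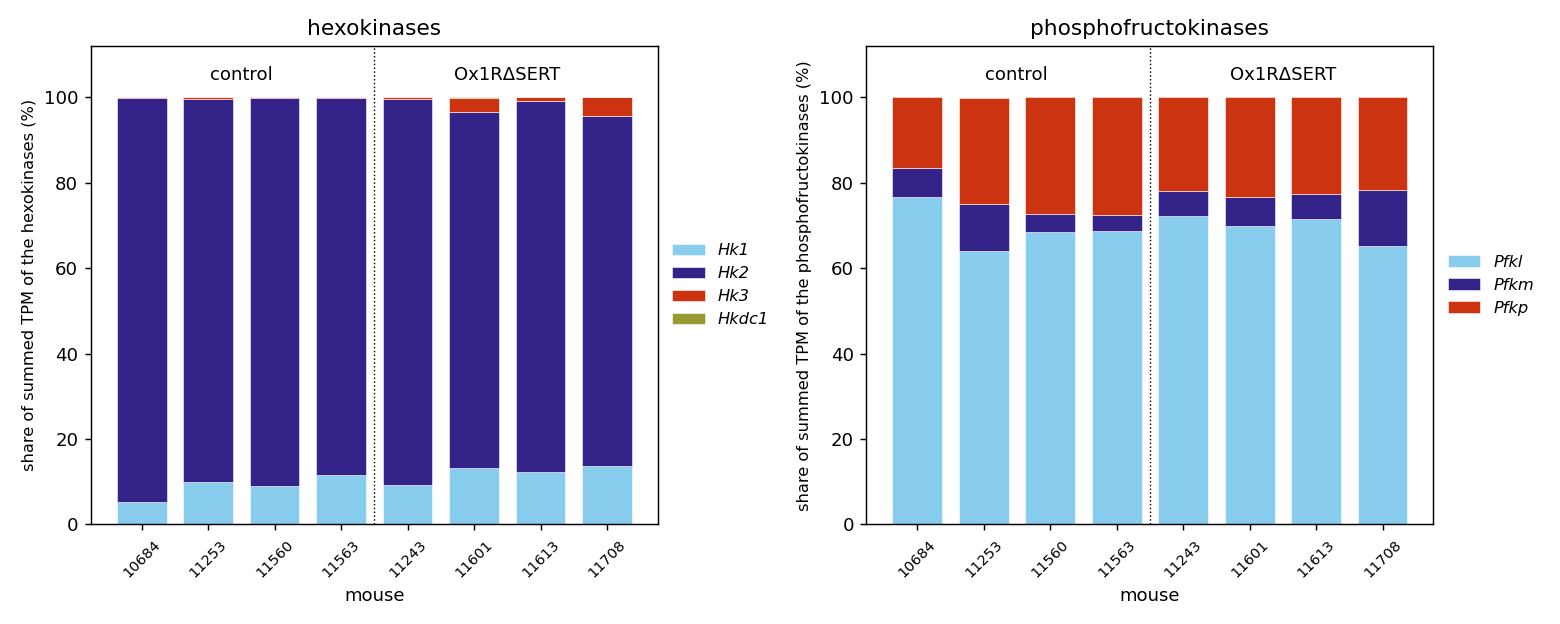
Shares (%) of each hexokinase gene, left, and of each phosphofructokinase gene, right, in the summed TPM of its family, as stacked bars with 1 bar per mouse. Hk2 takes 81.8% to 94.4% and Pfkl 63.9% to 76.6% in all 8 mice.

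The log2 ratio of Hk3 to Hk2, from TPM with 0.1 added, was -7.98, -7.56, -7.99 and -7.60 in controls 10684, 11253, 11560 and 11563, and -7.66, -4.56, -6.67 and -4.19 in Ox1RΔSERT mice 11243, 11601, 11613 and 11708. The means were -7.78 ± 0.23 and -5.77 ± 1.67 (SD, n = 4 each), a difference of 2.01 (exact two-sided permutation p = 0.0857, 0.171 after Benjamini-Hochberg adjustment over the 2 ratios tested). Mouse 11243 lay among the controls and the other Ox1RΔSERT mice above them. Without 11601 and 11708, the difference was 0.62 (exact permutation p = 0.4). Too few assignments of the mice remain there for this test to reach a p below 0.05, so it decides nothing. These 2 mice had the highest ratios, so a smaller difference followed from leaving them out.

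Pfkp did not follow Hk3, although both are isoforms associated with blood cells. Normalised values of Pfkp were 123, 177, 231 and 258 in controls 10684, 11253, 11560 and 11563, and 193, 120, 175 and 157 in 11243, 11601, 11613 and 11708. Mouse 11601, which had the highest summed leukocyte markers, had the lowest normalised value of Pfkp of the 8, and 11708 the third lowest. In TPM this order did not hold. Pfkp was at 41.8 TPM in 11601 and 53.4 in 11708, against 30.2 to 64 in control mice and 45.4 and 54.7 in 11243 and 11613. The log2 fold change was -0.29 (SE 0.24, edgeR adjusted p = 0.557), and with single mice left out it ranged from -0.14 without 11563 and -0.17 without 11601 to -0.46 (SE 0.19) without 10684. Platelet markers summed to 13.6 to 18.1 TPM in control and 12.2 to 105 in Ox1RΔSERT mice, most of it Pf4, while Gp1ba was at or below 0.1 TPM in every mouse. Pf4 was at 99.5 TPM in 11601 and 71.5 in 11708, and at 10.2 to 21.8 in the rest. The edgeR log2 fold change was 1.43 for Pf4 (adjusted p = 0.316), 0.58 for Ppbp (0.542) and 0.13 for Itga2b (0.826). Gp9 and Gp1ba did not pass the filter on low counts. Per Ptprc, the TPM of Pfkp was 30.6 to 102 in control mice, 37.7 and 30.9 in 11243 and 11613, and 6.4 and 10 in 11601 and 11708. The genes nearest to Pfkp in pattern were Atf5, a transcription factor of the stress response (0.112), St13, which encodes a co-chaperone (0.112), Tmem82 (0.125), Oscar, a receptor of osteoclasts and myeloid cells (0.131), and Ubqln1, a ubiquilin (0.137), where Pfkp itself varied by 0.365. The root mean square difference was 0.27 for Ucp1, 1.27 for Ptprc and 1.51 for Hk3.

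**Figure D4:**
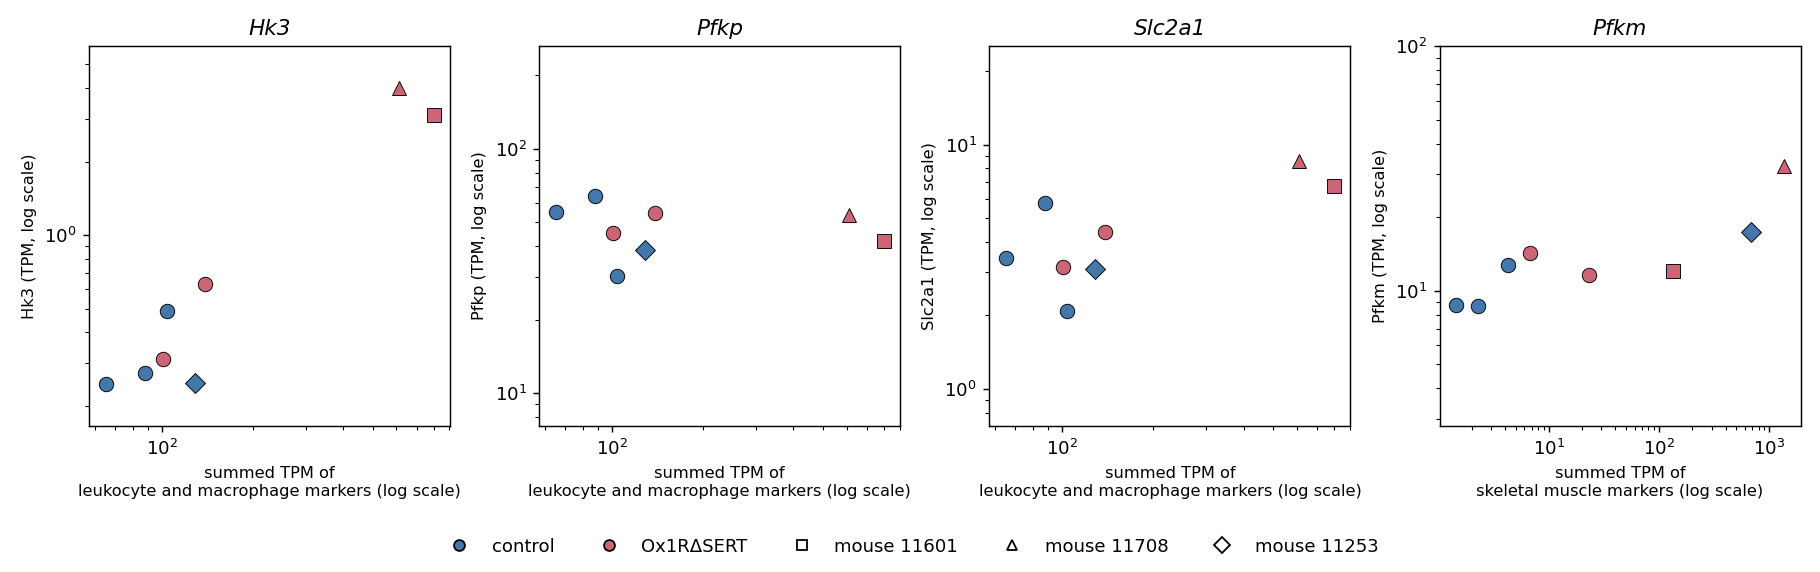
TPM of Hk3, Pfkp and Slc2a1 against the summed TPM of 10 leukocyte and macrophage markers, and of Pfkm against that of 10 skeletal muscle markers, with 1 point per mouse and both axes on a log scale. Hk3 is highest in the 2 mice with the highest leukocyte markers, 11601 and 11708, Pfkp is not, and Pfkm is highest in the 2 with the highest muscle markers, 11253 and 11708.

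Pfkm was highest where muscle markers were. Its normalised values were 51.9, 80.3, 36 and 35.5 in controls 10684, 11253, 11560 and 11563, and 49.5, 34.6, 49.3 and 97.2 in Ox1RΔSERT mice 11243, 11601, 11613 and 11708, so the highest mouse of each group was that with the most skeletal muscle RNA. The log2 fold change was 0.18 (SE 0.36, edgeR adjusted p = 0.827). Other muscle enzymes were high in the same 2 mice. Eno3, the muscle enolase, had normalised values of 69.2 and 72.1 in 11253 and 11708 and of 2.4 to 10.9 in the other 6. Pgam2, the muscle phosphoglycerate mutase, was at 21.1 and 24 there and at 0.021 to 2.43 elsewhere, and Pygm, the muscle glycogen phosphorylase, at 72.3 and 92.1 against 0.835 to 6.88. Pfkm, unlike these, kept a normalised value of at least 34.6 in the other 6 mice. Its normalised value was lowest in 11601, where muscle markers summed to 135 TPM, the most outside 11253 and 11708. In TPM, Pfkm was at 12 in 11601 and lower in 11560 (8.63), 11563 (8.79) and 11243 (11.6). The part of muscle RNA in its level was not tested.

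Pfkl supplied most phosphofructokinase transcripts. It held 69.4% ± 5.27 of the summed TPM of the 3 genes in control and 69.7% ± 3.21 in Ox1RΔSERT mice (SD, n = 4 each), Pfkp held 24.1% ± 5.21 and 22.4% ± 0.73, and Pfkm 6.56% ± 3.41 and 7.87% ± 3.58. The groups overlapped in all 3 shares. Normalised values of Pfkl ranged from 530 to 747 in control and from 424 to 740 in Ox1RΔSERT mice, with the lowest in 11601 (log2 fold change -0.11, SE 0.19, edgeR adjusted p = 0.799). The log2 ratio of Pfkp to Pfkm was 1.97 ± 0.91 in control and 1.60 ± 0.59 in Ox1RΔSERT mice, a difference of -0.38 (exact two-sided permutation p = 0.457, also 0.457 after adjustment over the 2 ratios). The difference was -0.08 without 11563 and also without 11708, -0.15 without 11560, -0.62 without 10684 and -0.65 without 11253. The ratio was lowest in the mice with the highest muscle markers, at 1.14 in 11253 and 0.72 in 11708, and between 1.25 and 2.85 in the other 6.

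Pfkfb3 makes the allosteric activator of phosphofructokinase. Its normalised values were 830, 435, 720 and 470 in controls 10684, 11253, 11560 and 11563, and 504, 228, 459 and 362 in Ox1RΔSERT mice 11243, 11601, 11613 and 11708. Mice 11601 and 11708 lay below all controls, and 11243 and 11613 between the lowest and the highest control. The log2 fold change was -0.66 (SE 0.29), with an unadjusted p of 0.0487 and an adjusted p of 0.328 in edgeR and an adjusted p of 0.213 in DESeq2 (exact two-sided permutation p = 0.143). Without 11601 and 11708, the 2 mice with the lowest Pfkfb3, the log2 fold change was -0.35 (SE 0.28, edgeR adjusted p = 0.996). The other genes for this bifunctional enzyme were low: mean TPM in control mice was 8.71 for Pfkfb1, 2.04 for Pfkfb2 and 1.05 for Pfkfb4, against 115 for Pfkfb3.

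Slc2a1 encodes the transporter of basal glucose uptake, GLUT1, and Slc2a4 the insulin-responsive one, GLUT4. Normalised values of Slc2a1 were 6.46, 9.7, 10.4 and 17.4 in controls 10684, 11253, 11560 and 11563, and 9.94, 13.8, 11.4 and 18.9 in 11243, 11601, 11613 and 11708. The groups overlapped over most of their range (log2 fold change 0.30, SE 0.31, edgeR adjusted p = 0.644). With single mice left out, the log2 fold change was 0.09 without 11708, 0.11 without 10684 and 0.59 (SE 0.26) without 11563, and the sign turned to -0.04 without 11601 and 11708. Slc2a4, which is not among the 10 genes, was the dominant transporter, with 111 ± 25.1 TPM in control and 103 ± 16.7 in Ox1RΔSERT mice (SD, n = 4 each) against 3.6 ± 1.57 and 5.72 ± 2.43 for Slc2a1. The ratio of Slc2a4 to Slc2a1 in TPM ran from 15.8 to 66 in control mice and from 12.2 to 30.4 in Ox1RΔSERT mice, and was lowest in 11601 and 11708. Normalised values of Slc2a4 itself ranged from 234 to 350 and from 141 to 265 (log2 fold change -0.42, SE 0.22, edgeR adjusted p = 0.366).

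At the end of the pathway, Pkm and Ldha varied little. Normalised values of Pkm were 1283 to 1749 in control and 1178 to 1783 in Ox1RΔSERT mice (log2 fold change -0.03, SE 0.16, edgeR adjusted p = 0.95). For Ldha they were 929 to 1119 and 873 to 1097 (log2 fold change -0.07, SE 0.12, edgeR adjusted p = 0.819). Both were lowest, or level with the lowest, in 11601. Pkm gives rise to the M1 and M2 splice forms, which a value per gene does not separate.

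Of 23 other genes of glycolysis, 20 passed the filter on low counts and 0 were called by edgeR. DESeq2 called 0 of the 17 to which it gave an adjusted p, which it did not for Fbp1, Pgam2 and Eno3. At an unadjusted p below 0.05, 2 were higher in Ox1RΔSERT mice (Fbp1 and Eno2) and 0 lower, against 15.2% of all genes in either direction. The median log2 fold change was -0.07. Fbp1, a gluconeogenic enzyme of liver and kidney, had normalised values of 0.157, 0.19, 0.135 and 0.0841 in controls 10684, 11253, 11560 and 11563, and 0.284, 0.651, 0.225 and 9.15 in 11243, 11601, 11613 and 11708. It was the 1 gene of this list whose groups did not overlap (exact two-sided permutation p = 0.0286, the smallest the design allows), with 11708 far above the rest. Over all genes tested, 5.5% did not overlap. The values of Fbp1 rest on only 4 to 6 estimated counts per control library and 10 to 445 per Ox1RΔSERT library. It passed the filter on low counts only through the Ox1RΔSERT mice, where it was higher. Its lack of overlap and its p-values were thus favoured by the filter and are not evidence of a difference. Eno2, the neuronal enolase, was at 1.83 in 11601 and 1.32 in 11708, against 0.429 to 0.561 in the other 6. The major enzymes of the pathway, with control means of 1506 TPM for Aldoa, 1174 for Gapdh and 667 for Eno1, had log2 fold changes of -0.10 (SE 0.16), -0.05 (SE 0.18) and 0.14 (SE 0.20).

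Among 15 genes for other fates of phosphorylated glucose, the pentose phosphate pathway and glycogen metabolism, all passed the filter, 0 were called by edgeR and 0 of the 14 with an adjusted p by DESeq2 (Pygm had none). Rpia, the ribose phosphate isomerase, was the 1 gene of the 15 at an unadjusted p below 0.05 in edgeR, against 15.2% of all genes tested. Its normalised values were 14.5 to 21.9 in control and 12.1 to 15.9 in Ox1RΔSERT mice (log2 fold change -0.42, SE 0.14, edgeR adjusted p = 0.316). The median of this list was -0.05, and 5 of its genes lay above 0 and 10 below.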

How the data were processed

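BAT mRNA of 8 mice was sequenced from stranded, poly-A selected libraries. The authors quantified reads with Salmon 0.14.1 (nf-core/rnaseq 1.4, GRCm38) and deposited estimated counts and TPM per gene; the annotation release is not given in the sources used here. The submitters' processing notes also name STAR and DESeq2 1.26.0. Symbols were taken from GENCODE by gene ID (44118 of 44674 matched). Estimated counts were rounded and tested with edgeR 4.0.16 in R 4.3.3 (filterByExpr, TMM, quasi-likelihood, Benjamini-Hochberg), with DESeq2 1.42.0 and limma 3.58.1 as alternatives. Normalised values are CPM after TMM. Isoform shares and ratios used the deposited TPM, with a pseudocount of 0.1 for ratios. TPM includes mitochondrial transcripts, so their share moves every TPM level. Dispersion is shared over both groups (common dispersion 0.0988).

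The 10 genes, all named, and the lists were chosen with earlier results of these data known. Nearest genes were, for Hk3, Hk2 and Pfkp, the 5 tested genes outside the 10 with the smallest root mean square difference of mean-centred log2 (normalised value + 0.1) over the 8 mice. List genes are named where discussed. Of the lists, 2 genes are not reported here and were left out of counts, medians and shares. Each library is 1 mouse. In GENCODE, exons overlap those of another gene on the same strand in Pfkm (341 bases, Gm26513) and Pkm (767 bases, Gm49759), and on the opposite strand in Slc2a1, Hk1, Hk3, Pfkm and Pfkp. The edgeR procedure was tested on simulated data. Of 100 genes with a simulated log2 change of 1 in size, edgeR recovered 41% and DESeq2 62%. For a change of 2 in size, they recovered 82% and 90%. Among genes left unchanged, edgeR called 4 and DESeq2 32. How far these values hold for the BAT libraries was not tested. Protein sequences were not used here.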

Additional observations from a re-analysis of the deposited data

How the results depend on the processing

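No paired analysis was possible because the labels give the mice no replicate numbers, and the numbers used here, in accession order, tie no control mouse to an Ox1RΔSERT mouse. The edgeR fit called 0 genes and DESeq2 265; 2201 genes had an unadjusted p below 0.05 in edgeR. Leaving out 1 mouse gave 1018 to 3331 such genes, leaving out 11601 and 11708 gave 424, and leaving out 11253 and 11708, chosen after seeing the data, gave 949. No label sets the mice of either pair apart, only their expression values do. Of the 10 members, 2 had an unadjusted p below 0.05. This became 1 with RLE, upper-quartile or library-size scaling and with limma on log2(TPM + 1) or log2(TPM + 0.1), 0 with limma voom, 0 without 11601 and 11708 (edgeR and, chosen after seeing the data, DESeq2), 0 without 11253 and 11708, and 1 to 3 with 1 mouse left out in edgeR and 1 to 4 in DESeq2.

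Scaling by library size alone, log2(TPM + 1) and log2(TPM + 0.1) moved the median of all genes to 0.2188, 0.2304 and 0.3194, and fold changes are given relative to it there. Signs turned in genes with small changes. With log2(TPM + 1), Pkm was at 0.05 and Ldha at 0.02. Without 11601 and 11708, edgeR gave Slc2a1 -0.04, Pfkl 0.15, Pfkm -0.03, Pkm 0.16 and Ldha 0.09, and DESeq2 gave -0.04, 0.15, -0.04, 0.16 and 0.09. Without 11253 and 11708, Hk1 was at -0.03. With 1 mouse left out, Hk1 ranged from -0.03 to 0.05, Pfkl from -0.24 to 0.03, Pfkm from -0.20 to 0.47 and Pkm from -0.13 to 0.08 in edgeR. In DESeq2, Hk1 was at -0.02 without 11253, Pfkm at -0.19 without 11708, Pfkl at 0.03 without 11601, and Pkm at 0.03 without 10684 and 0.08 without 11601. Hk2, Hk3, Pfkp, Pfkfb3 and Slc2a4 kept their direction in all 30 alternatives, as did both ratios in their 12. Depth limits Hk3 most, with 35 to 71 counts in control libraries. The causes were not tested.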
